A study of Mus musculus with 2 samples.

Results

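Apart from Amy1, an amylase gene of salivary gland and liver, the genes described here encode digestive secretions of the exocrine pancreas. Those secretions serve to break down fat, starch and protein in the gut. The genes were read on arrays of sorted cells that the labels call ILCregs, for regulatory innate lymphoid cells. The list held 9 genes, Pnlip, Pnliprp1, Pnliprp2, Cel, Clps, Amy2b, Amy1, Cpa1 and Cpb1, and a member was taken where an array feature carried that gene symbol and no other. This gave 6 genes with 1 feature each, of 28281 named genes in all; Pnlip, Pnliprp1 and Pnliprp2 were not analysed here, so the lipases are represented only by Cel and by Clps, a lipase helper. The list was chosen by the signal that genes gave on these same 2 arrays, so the levels below are a description and were not tested.

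The series held 1 group of 2 arrays, replicate 1 and replicate 2. Mice of the C57BL/6 strain with an IL-10-GFP knockin, which places green fluorescent protein at the interleukin 10 locus, gave small intestine cells at 8 weeks of age and had been housed specific pathogen-free. Post-sort purity was above 95% by the submitters' account; the sources used here give neither the sort gates nor whether the arrays came from separate mice, and the spread between arrays may therefore be only technical. No control population was analysed here, and no p-value is given.

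Acinar cells of the pancreas make digestive enzymes in bulk, store them in zymogen granules and release them into the duct that opens into the duodenum. Their enzyme genes are driven by the factor complex PTF1, which pairs the acinar protein PTF1A with RBPJL or RBPJ and binds an E-box beside an RBPJ site. Innate lymphoid cells are tissue lymphocytes that secrete cytokines and are not known for making these enzymes.

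The sequences just upstream of the gene starts are shown because PTF1 acts there. They are those of members of high signal and of Amy1, the member of lowest signal. Whether the sequences bear on the signal was not tested. RefSeq promoter windows (GRCm38.p6) matched 8 of the 9 listed genes and 5 of the 6 measured ones, with 2 starts for Amy1. The 250 bases before each start are written 5′ to 3′ on the gene's strand. Capitals mark 3 motifs on either strand. The E-box that PTF1 can use reads CACCTG or, reversed, CAGGTG. The core of an RBPJ site reads TGGGAA or, reversed, TTCCCA. The TATA box reads TATAAA or, reversed, TTTATA. None of these 3 motifs overlap in the windows shown. Amy2b lay at chr3:113156728-113156977, minus strand, Cpa1 at chr6:30638968-30639217, plus strand, Cpb1 at chr3:20275734-20275983, minus strand, Cel at chr2:28563404-28563653, minus strand, and the Amy1 windows at chr3:113577751-113578000, minus strand (start 1) and chr3:113574763-113575012, minus strand (start 2).
Amy2b: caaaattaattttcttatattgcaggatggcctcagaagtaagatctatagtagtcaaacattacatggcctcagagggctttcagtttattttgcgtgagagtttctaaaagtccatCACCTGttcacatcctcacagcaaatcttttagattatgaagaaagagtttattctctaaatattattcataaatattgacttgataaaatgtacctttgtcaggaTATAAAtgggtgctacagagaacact
Cpa1: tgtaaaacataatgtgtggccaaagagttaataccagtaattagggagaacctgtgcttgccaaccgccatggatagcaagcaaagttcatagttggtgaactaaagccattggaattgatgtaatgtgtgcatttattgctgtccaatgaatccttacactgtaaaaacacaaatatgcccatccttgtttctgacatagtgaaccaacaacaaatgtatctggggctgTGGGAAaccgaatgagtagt
Cpb1: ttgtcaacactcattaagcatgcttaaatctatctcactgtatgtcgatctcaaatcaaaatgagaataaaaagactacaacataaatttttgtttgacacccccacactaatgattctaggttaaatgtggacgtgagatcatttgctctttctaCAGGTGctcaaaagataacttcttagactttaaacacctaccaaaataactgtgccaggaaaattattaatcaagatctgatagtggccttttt
Cel: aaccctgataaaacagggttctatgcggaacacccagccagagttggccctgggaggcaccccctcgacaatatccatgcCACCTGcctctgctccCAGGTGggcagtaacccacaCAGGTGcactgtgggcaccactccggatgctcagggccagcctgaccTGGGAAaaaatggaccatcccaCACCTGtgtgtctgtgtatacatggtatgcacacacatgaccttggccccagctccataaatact
Amy1, start 1: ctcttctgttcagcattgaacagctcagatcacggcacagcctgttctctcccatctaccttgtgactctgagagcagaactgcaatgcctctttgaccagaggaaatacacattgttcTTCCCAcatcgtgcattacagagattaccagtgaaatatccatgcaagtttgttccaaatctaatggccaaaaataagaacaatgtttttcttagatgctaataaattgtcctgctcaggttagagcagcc
Amy1, start 2: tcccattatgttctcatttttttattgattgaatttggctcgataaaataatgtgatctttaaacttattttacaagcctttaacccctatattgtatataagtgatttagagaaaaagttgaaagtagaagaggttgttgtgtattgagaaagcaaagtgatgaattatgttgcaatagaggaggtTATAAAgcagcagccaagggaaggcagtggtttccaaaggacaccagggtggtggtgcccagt

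The Cel window held 4 matches to the PTF1 E-box, which began 170, 154, 134 and 65 bases before the start, and 1 match to the RBPJ core 87 bases before it. Amy2b had 1 E-box match 132 bases and 1 TATA box 26 bases before its start. Cpb1 had 1 E-box match at 94 bases, and Cpa1 had 1 RBPJ core match at 20 bases. For Amy1, start 1 had 1 RBPJ core match at 131 bases and start 2 had 1 TATA box at 63 bases. In all, 3 of these 6 windows held the E-box, against 17.2% of 32851 RefSeq windows of the same length, 3 held the RBPJ core, against 21.6%, and 2 held the TATA box, against 12.4%. Only the Cel window held both E-box and RBPJ core, as 3.91% of all windows did. A match of these letters is a description of the window and not a binding site.

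Signal is given as log2 per gene and array, as the authors deposited it; the base was taken from the range of the values and is not stated. A level was set against 1678 olfactory, vomeronasal and taste receptor genes, which are largely restricted to sensory cells. The 95th percentile of these receptor genes, 6.74 for replicate 1 and 6.19 for replicate 2, was the threshold, and a gene counted as above it only when it was so on both arrays. Probes differ in affinity, so a higher signal of one gene than of another does not order their transcripts.

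All 6 measured members lay above the threshold on both arrays, in a background where 31.7% of the 28281 named genes and 38.9% of 16404 protein-coding genes outside the receptor reference did. Their median signal was 16.03, beside 5.43 over all named genes and 8.46 over the 8971 named genes above the threshold. Since the list was drawn up from such values, this difference is a property of the choice. The members did not share 1 level: Amy2b, Cpa1, Cpb1 and Cel were far above the threshold, Clps was well above it, and Amy1 was just above it. In such bulk RNA, fewer cells of a type and less RNA per cell cannot be told apart.

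**Figure D1:**
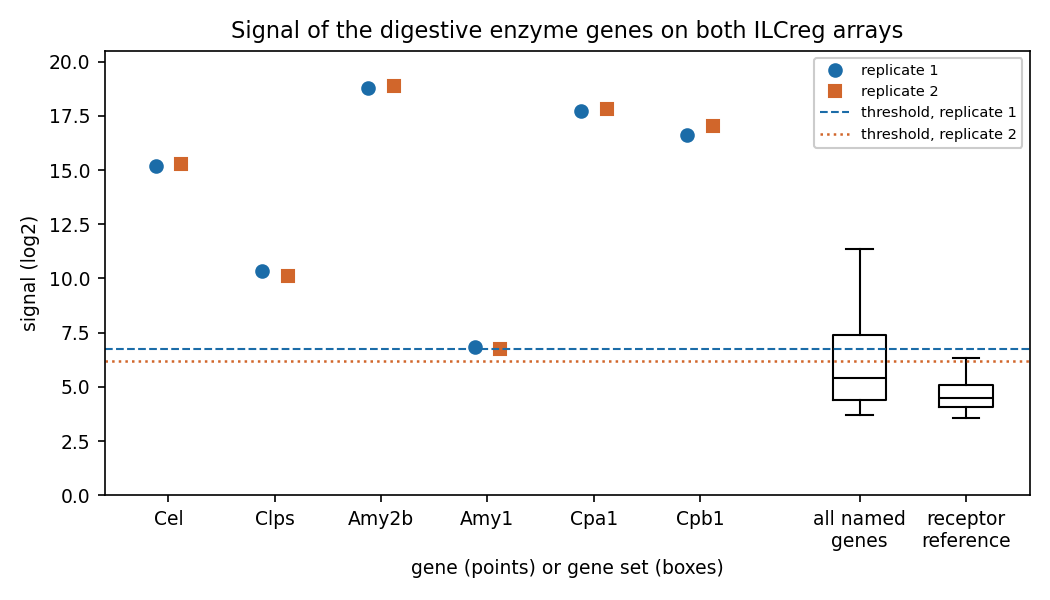
Signal (log2) of the 6 measured enzyme genes on the array of replicate 1 (circles) and replicate 2 (squares), with boxes for the mean signal of all named genes and of the receptor reference (box, quartiles; line, median; whiskers, 5th and 95th percentiles) and lines for the threshold of each array. Amy2b, Cpa1, Cpb1, Cel and Clps sit above the upper whisker of the receptor genes on both arrays by a wide gap, and Amy1, at 6.84 and 6.74, sits at the lines.

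Cel encodes carboxyl ester lipase, the bile salt-activated enzyme that cleaves cholesterol esters and other lipid esters. Its signal was 15.19 in replicate 1 and 15.28 in replicate 2, a mean of 15.23 ± 0.06 (SD, n = 2). Both values lay over the thresholds of their arrays, by 8.45 and 9.09 on the log2 scale, and 98.8% of named genes had a lower signal. Clps encodes colipase, the small cofactor that anchors pancreatic lipase to fat droplets coated with bile salts. It gave 10.33 and 10.10 on the arrays of replicates 1 and 2, a mean of 10.22 ± 0.17 (SD, n = 2), which was 3.75 above the mean threshold and higher than 92.2% of named genes. Colipase was thus read on both arrays, while pancreatic lipase, the enzyme it serves, was not analysed here.

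Lipases and esterases of other tissues were read beside them. Of 8 measured lipase genes outside the pancreas 2 passed the threshold, with the fat cell triglyceride lipase gene Pnpla2 highest at 8.49 ± 0.01 and its relative Pnpla3 lowest at 4.07 ± 0.05 (SD, n = 2). Among 10 carboxylesterase genes, the enzyme family to which Cel is related, 3 passed. Ces1d had the highest signal, 10.12 ± 0.06, and Ces3b the lowest, 4.04 ± 0.13 (SD, n = 2). Both counts stand near the 31.7% of all named genes above the threshold, and the medians of these lists, 6.06 and 5.60, stand near the 5.43 of all named genes.

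Amylases cut starch into short sugars; in the mouse Amy2b and the Amy2a copies are pancreatic genes, and Amy1 is the gene of salivary gland and liver. Amy2b gave 18.76 and 18.89 on the arrays of replicates 1 and 2, a mean of 18.82 ± 0.09 (SD, n = 2). Only 49 of the named genes had a higher signal. Both values lay close to the highest value of their array, 19.80 and 19.86, at 1.04 and 0.97 below it. Whether an even higher level would have had room to show was not tested. Amy1 gave 6.84 on the array of replicate 1, only 0.10 over its threshold, and 6.74 on that of replicate 2, which was 0.55 over its own. Its mean was 6.79 ± 0.07 (SD, n = 2), and 42 of the 1678 receptor genes had a higher mean. At the 99th percentile of the receptor genes, 7.91 and 7.21, Amy1 was above the threshold on neither array, while the other 5 members were above it on both.

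The amylase genes are neighbours on chromosome 3 in GRCm38.p6. Amy2a1, the pancreatic copy next to Amy1 in that order, had a signal of 16.58 in replicate 1 and 16.50 in replicate 2. The other Amy2a genes lie between Amy2b and Amy2a1 and were not named here, since their features carry several symbols. Amylase copies are near-identical in places, so the signal of Amy2b and Amy2a1 may in part be shared between copies, and how much was not tested. Beyond the cluster, the protein-coding genes on either side had far lower signal than Amy2b and Amy2a1. Prmt6, on the Amy2b side, had 6.64 ± 0.06 (SD, n = 2) and was above the threshold on 1 array. Rnpc3, on the Amy1 side, had 7.50 ± 0.05 (SD, n = 2) and was above it on both. Salivary gland genes, the set to which Amy1 would belong by tissue, passed in 0 of 7 cases, with a highest mean of 5.66 for Prol1. Of 6 liver genes 1 passed, Cps1 at 12.56 ± 0.15 (SD, n = 2), a urea cycle enzyme that the small intestine also makes, whereas albumin (Alb) stood at 4.59 ± 0.16. Beside both counts, 31.7% of all named genes passed. With so few genes, the counts are no result about either tissue.

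Carboxypeptidases trim amino acids one at a time from the carboxyl end of peptides: Cpa1 prefers aromatic and aliphatic residues, Cpb1 the basic residues that trypsin leaves. Cpa1 gave 17.72 and 17.80 on the arrays of replicates 1 and 2, a mean of 17.76 ± 0.06 (SD, n = 2) and higher than 99.6% of named genes. Cpb1 gave 16.59 in replicate 1 and 17.04 in replicate 2, a mean of 16.82 ± 0.31 (SD, n = 2) and higher than 99.4% of named genes. With Amy2b, these were the 3 members above 16, the log2 of the largest reading of a 16-bit scanner, on both arrays, as 237 named genes were, and what step yielded such values was not stated.

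The other carboxypeptidases of the same enzyme family (M14) were split by the threshold. Of 10 measured, 5 passed, beside 31.7% of all named genes. The highest, the Golgi enzyme gene Cpd, stood at 9.40 ± 0.30 (SD, n = 2). Cpa3, the mast cell carboxypeptidase, lies next to Cpb1 on chromosome 3 and stood at 4.60 ± 0.19 (SD, n = 2), below the threshold on both arrays. Mast cell genes passed in 1 of 9 cases, that of Kit, at 7.48. Cpa5, next to Cpa1 on chromosome 6, had 4.15 ± 0.01 (SD, n = 2), and Cpa4, the lowest of the family, had 3.98 ± 0.07. Over all members, 4 of the 11 distinct nearest protein-coding neighbours with a value passed. That share is near the 31.7% of all named genes and so no result about the neighbours. Apart from Amy2a1, itself an amylase gene, the highest of them was Rnpc3.

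The enzymes stood beside other acinar products of high signal. Of 13 measured acinar proteases 12 passed on both arrays, with a median of 15.14. Ctrb1, a chymotrypsinogen gene, was highest at 19.65, a value whose difference between the arrays equals that of the highest values of the arrays within 0.0001 and whose SD therefore says nothing on the samples. Prss2, a trypsinogen gene, had 17.45 ± 0.23, and the caldecrin gene Ctrc was lowest at 6.37 ± 0.03 (SD, n = 2), above the threshold on 1 array. All 9 other measured acinar secreted proteins passed, with a median of 12.75; Reg1, a lectin of acinar cells, had 17.33 ± 0.42 and the serpin gene Serpini2 had 6.70 ± 0.38 (SD, n = 2). Together with the 6 members this made 28 genes, called genes of acinar secretion here, although Amy1 is the gene of salivary gland and liver. Of the 28 genes, 27 passed, beside 31.7% of all named genes, and 10 were above 16 on both arrays. Both lists, like the members, were chosen with earlier results of these arrays known. Whether their genes are made by acinar cells alone, and not also by gut epithelium, was not tested.

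Regulators of acinar cells were read on the same arrays. Of 9 measured acinar transcription factor and secretagogue receptor genes 2 passed, a share near the 31.7% of all named genes and so no result about the list. These were Xbp1 at 13.50 ± 0.37 and Rbpj at 9.42 ± 0.02 (SD, n = 2), both of which many cell types use. Ptf1a, the acinar partner in PTF1, stood at 3.53 ± 0.21, Rbpjl at 4.32 ± 0.13 and Bhlha15, the secretory cell factor also called Mist1, at 3.70 ± 0.10 (SD, n = 2), and none of them was above the threshold on either array. A gene below the threshold is not shown to be absent. Of 9 islet and duct genes 2 passed too, the chloride channel gene Cftr at 8.23 ± 0.07 and Sox9 at 6.76, both also used in gut epithelium, whereas the insulin gene Ins2 gave 5.29 ± 0.02 (SD, n = 2). Somatostatin (Sst) was above the threshold on 1 array only, with 6.93 in replicate 1 and 4.82 in replicate 2.

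**Figure D2:**
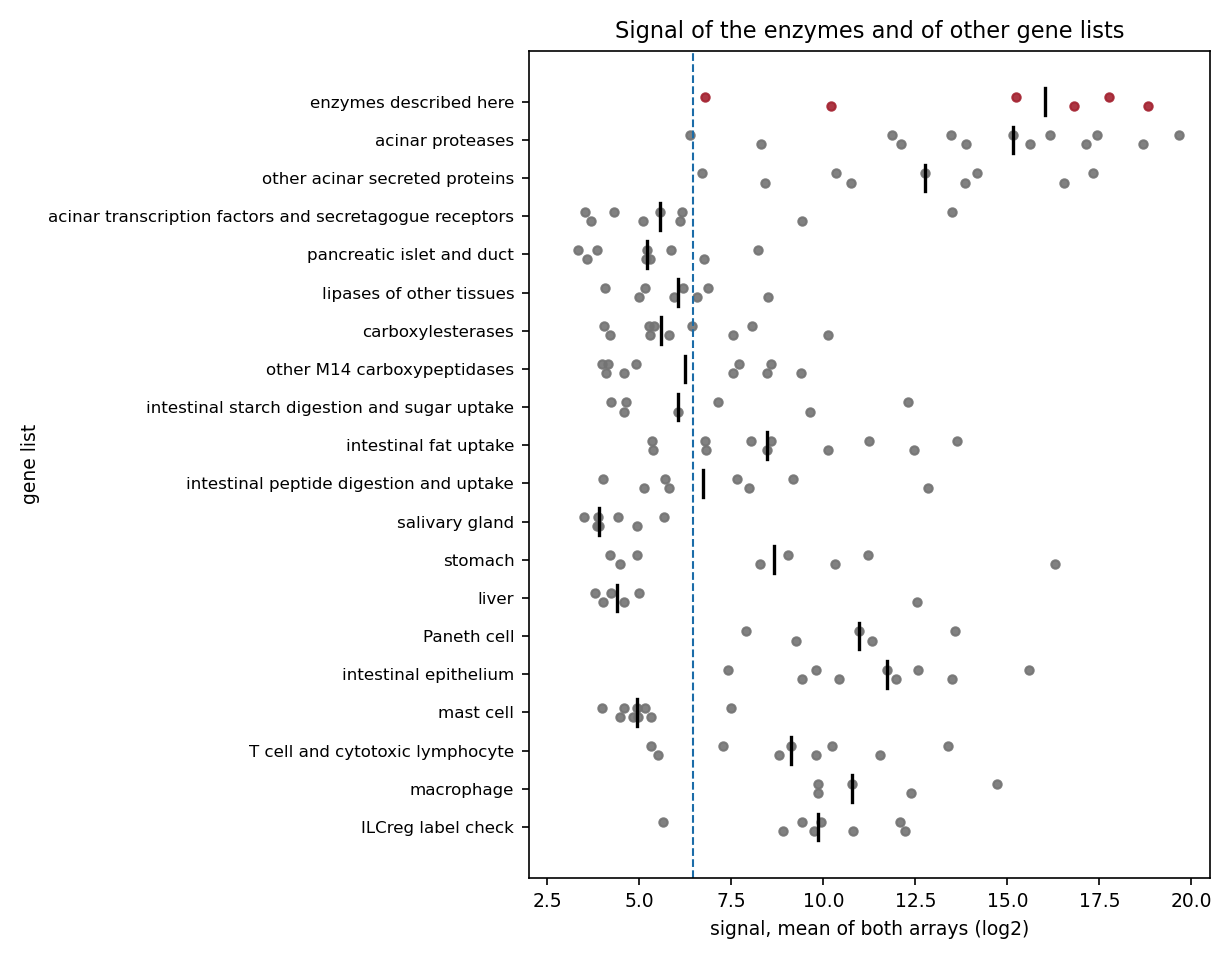
Mean signal of both arrays (log2) for the 6 measured enzyme genes (top row) and for each gene of the other lists, with a short vertical line at each median and a dashed line at the mean threshold, 6.47. The members (median 16.03), the acinar proteases (15.14) and other acinar secreted proteins (12.75) lie mostly to the right, and acinar transcription factors (median 5.56), islet and duct genes (5.21) and salivary genes (3.91) mostly to the left of the line.

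The steps that follow these enzymes in the gut wall were read in part. For starch, 3 of 7 genes of brush border sugar digestion and uptake passed, among them the maltase-glucoamylase gene Mgam at 12.32 ± 0.11 and the sucrase-isomaltase gene Sis at 9.65 ± 0.23 (SD, n = 2). For fat, 9 of 11 uptake genes passed; the triglyceride synthesis gene Dgat1 was highest at 13.64 ± 0.10 and Mogat2 lowest at 5.36 ± 0.30 (SD, n = 2). For protein, 4 of 8 genes of peptide digestion and uptake passed, with aminopeptidase N (Anpep) at 12.85 ± 0.02 (SD, n = 2). Beside these 3 counts, 31.7% of all named genes passed. Tmprss15, enteropeptidase, the duodenal enzyme that activates trypsin and so the carboxypeptidase precursors, had 4.02 ± 0.09 (SD, n = 2) and was above the threshold on neither array.

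Genes listed for the labelled cells and for other cells passed together on the same arrays. Of 8 measured genes listed to check the ILCreg label 7 passed, with the leukocyte gene Ptprc (CD45) at 12.21, Il10 at 10.82 and Il7r at 8.92, and Thy1 (5.64) was below the threshold. Whether any of the 8 is particular to ILCregs was not tested, so their count does not settle the label. Intestinal epithelium passed in 9 of 9 genes (from 7.42 to 15.59), macrophages in 5 of 5 (from 9.86 to 14.71) and Paneth cells in 5 of 5 (from 7.89 to 13.57). T cells and cytotoxic lymphocytes passed in 7 of 9 and stomach in 5 of 8, beside 31.7% of all named genes. The T cell genes Cd3e (9.79), Cd3g (9.11) and Cd3d (8.79) and the granzyme gene Gzmb (13.39) passed, whereas Cd8a (5.33) and Prf1 (5.51) did not. In the stomach list Gkn3 reached 16.30 ± 0.24, and the acid pump genes Atp4a (4.48) and Atp4b (4.20) were not above the threshold. Which cells gave the enzyme signal, and whether any of it came from RNA outside the sorted cells, was not tested.

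The arrays gave nearly the same signal for the members. After centring on the median difference of all named genes, which was -0.05, replicate 2 minus replicate 1 was 0.13 for Cel, 0.17 for Amy2b, 0.13 for Cpa1 and 0.49 for Cpb1, and it was -0.19 for Clps and -0.06 for Amy1. The 4 members of highest signal were thus higher on the array of replicate 2, and the 2 of lowest signal were higher on that of replicate 1, with no centring and after quantile normalization too. After centring, 14140 of the 28281 named genes were higher on replicate 2, so a split of 4 and 2 is no result about the members. No member was over 2-fold apart (1 on the log2 scale), as 4.16% of the 8971 named genes above the threshold were. The median absolute difference was 0.15 over the members and 0.28 over those 8971 genes, and the median SD was 0.08 against 0.19. The median signal was 16.03 for the members and 8.46 for those genes. The comparison was not matched for signal, so it does not set the members apart. Cpb1 differed most among the members, and its SD of 0.31 was the only one of the 6 above 0.19. Near the top of the range, where Amy2b lies, the highest values of the arrays themselves differ by 0.06.

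Other genes of acinar secretion did not share 1 direction either. After the same centring, 6 acinar proteases were higher in replicate 2 and 7 in replicate 1, from -0.33 for Try4 to 0.74 for the elastase gene Cela1. Of 5 measured trypsin genes 4 were higher in replicate 1 after centring. Such counts can differ in the signal before centring. The other acinar secreted proteins ran from -0.73 for the pancreatic phospholipase gene Pla2g1b to 0.84 for Cuzd1, a zymogen granule protein gene. In all, 0 of the 28 genes were over 2-fold apart. Of the named genes above the threshold 4.16% were, so this count is no result about the 28 genes. The lists were not matched for signal or size, so their counts do not set 1 list apart from another. In the stomach list 3 of 8 genes were past 2-fold toward replicate 1, Tff1 at -1.29 among them, as were the Paneth cell defensin gene Defa27 at -1.67 and the enterocyte gene Fabp1 at -1.09. Below the threshold on at least 1 array, Sst at -2.06 and the peptide transporter gene Slc15a1 at -1.29 were past it as well. Each of these differences rests on 1 array against 1. With 2 arrays of 1 group, no genes of like pattern across samples can be named.

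**Figure D3:**
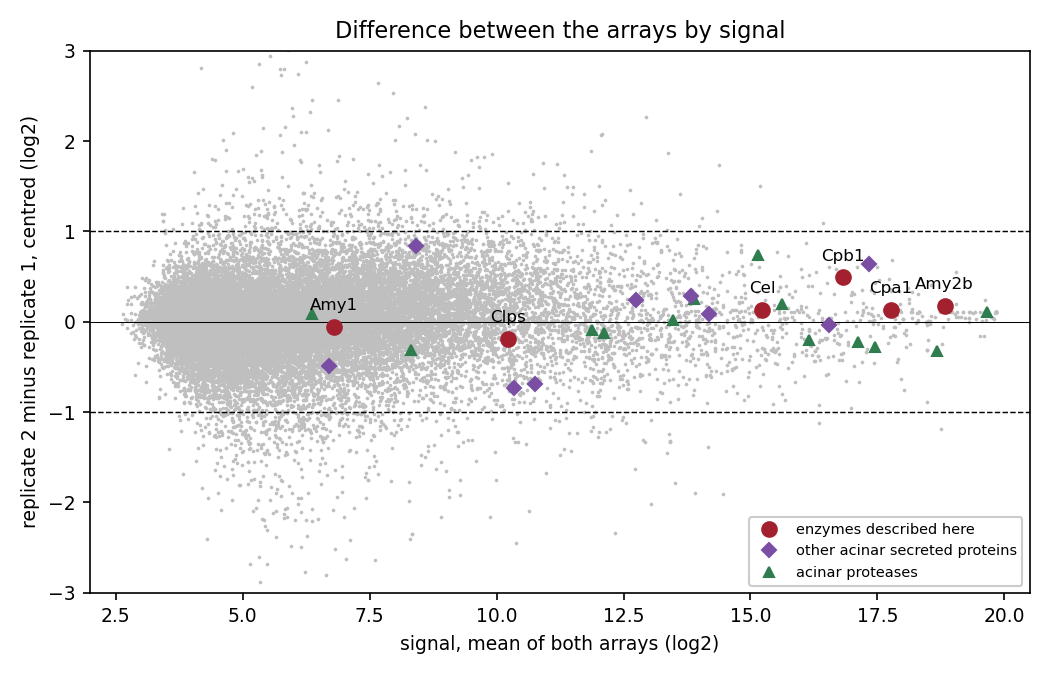
Centred difference of replicate 2 minus replicate 1 (log2, vertical) against mean signal (log2, horizontal) for the named genes (grey), the 6 enzyme genes (circles), the other acinar secreted proteins (diamonds) and the acinar proteases (triangles); dashed lines mark 2-fold, and 24 named genes lie beyond the vertical axis. All 28 genes of acinar secretion lie between the dashed lines, from -0.73 to 0.84.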

How the data were processed

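RNA of 2 samples of sorted ILCregs was amplified with a whole-transcript kit and hybridised to Affymetrix arrays, per the labels' protocols. The table the authors deposited holds log2 signal (the scale read from the values) for 61344 features; the submitters' processing notes name MAS5, a summarization method, with no version or role, and the sources used here give neither scaling nor build. Features whose annotation held 1 distinct symbol (28573) were used, 2014 with several and 30757 with none were not. Symbols were updated through Entrez identifiers of the GRCm38.p6 table, and the feature of highest mean signal stood for a gene, which gave 28281. Thresholds, centred differences and counts were computed in Python 3.11.15 with pandas 2.3.3 and numpy 2.4.6 and checked on simulated data. The number of arrays, 2, limits the precision of every value. Alternatives were other reference percentiles (90 and 99), a keratin-associated protein and Rhox reference of 57 genes, the median over features, quantile normalization, other centring and each array alone.

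The members, the gene lists and the threshold were chosen with earlier results of these data known. Besides the members, the genes eligible to be named were the highest, the lowest and the most different of each list, a few preset genes, and list genes given as above or not above the threshold; not every eligible gene is named. Neighbours were looked at after the members' values were seen. Of the list genes, those without a feature of 1 symbol were not analysed here.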

Additional observations from a re-analysis of the deposited data

Results flagged for a closer look

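Signal also appeared in array features that entered none of the values above. All 4 features annotated to several pancreatic amylase copies at once exceeded the thresholds of both arrays, with values between 18.81 and 19.34. For 3 of them the difference between the arrays equalled that of the highest values of the arrays within 0.0001. They name no single gene, and how much signal they share with Amy2b was not tested.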

How the results depend on the processing

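The count of members above the threshold was 6 at the 90th percentile of the receptor genes, with the keratin-associated protein and Rhox reference, with the median over features and after quantile normalization, and 5 at the 99th percentile, where Amy1 was lost. Without replicate 1 or replicate 2 it was 6 each time. These counts and the one at the 90th percentile had to be 6, since all 6 members passed the main threshold on both arrays. Amy1 alone sits near the threshold. Without it, an alternative chosen after the data were seen, 5 of 5 members passed, as they had to. The median signal of the members was then 16.82 in place of 16.03. The count of named genes above the threshold was 5588 at the 99th percentile, where a higher threshold must lower it. It was 8941 to 11026 under the other planned settings that use both arrays. Without 1 array it was 9147 to 10925, and asking for 1 array in place of 2 cannot lower it. Members' median signal was 15.89 to 16.16 without 1 array. Their median difference between the arrays was 0.08 with no centring, 0.08 when centred on genes above the threshold and 0.13 after quantile normalization, against 0.13, and 0 members were over 2-fold apart in each case. Each member has 1 feature, so the choice among features cannot change its signal. No paired analysis was possible because the series has only 1 group. The arrays give 2 values a gene. Amy2b lies 1.04 and 0.97 below the highest values of the arrays of replicates 1 and 2, and whether a ceiling bounds it was not tested.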
